A study of Mus musculus with 125 samples.

Results

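Open chromatin of the barcoded mouse leukaemia lines C and D (B-cell acute lymphoblastic leukaemia, B-ALL) was compared by ATAC-seq between cultures with and without natural killer (NK) cells at day 6, the first time point of experiment 9.7. Of the 125 samples in the series, 12 entered the comparison, and they were chosen by the titles given by the submitters: 6 libraries of B-ALL + NK and 6 of B-ALL alone, with 3 replicates of each line in each arm. All consensus peaks of the series were considered. Both lines carry BCR/ABLp185, were started from bone marrow of wild-type C57BL/6 mice and were barcoded from 1 parental line, so C and D are not independent leukaemias. The NK cells were primary mouse cells activated with IL-2 and added at a ratio of 1 to 1. B-ALL cells carry GFP, and GFP+ cells were sorted before transposition. The study describes its co-cultures as 3 biological replicates, grown in separate wells. No label ties the libraries to those wells, so p-values here rest on a spread among libraries that may be partly technical.

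NK cells kill by releasing perforin and granzymes and by engaging death receptors, and they also secrete interferon-γ (IFN-γ). In a target cell IFN-γ signals through JAK kinases, and its early targets carry gamma-activated sequences (GAS). A second wave of interferon regulatory factors binds interferon-stimulated response elements (ISRE). Among the classical targets are the guanylate-binding proteins (GBPs) and the immunity-related GTPases (IRGs), which attack membranes of intracellular parasites, and the genes that load and present peptides on MHC class I, a ligand that inhibits NK cells. ATAC-seq counts transposase insertions, and a peak marks DNA that nucleosomes leave accessible.

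The windows below are shown because they hold ISRE-like or GAS-like letters inside peaks whose accessibility is described next. They were read from the RefSeq copy of the GRCm38.p6 genome on the plus strand, each reaches 45 bases to either side of the match nearest to the centre of its peak, and none overlaps an annotated exon. Capitals mark ISRE-like (GAAANNGAAA) and GAS-like (TTCNNNGAA) letters on either strand. The first 6 come from peaks that gained accessibility with NK cells. The window of B2m, the invariant light chain of MHC class I, is shown for contrast because it holds the same letters as the Herc6 and Gm8369 windows in a peak that was not called.
Gm12185 chr11:48927203-48927302: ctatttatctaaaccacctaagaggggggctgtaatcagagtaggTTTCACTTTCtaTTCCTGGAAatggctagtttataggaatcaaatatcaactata
Rtp4 chr16:23609800-23609899: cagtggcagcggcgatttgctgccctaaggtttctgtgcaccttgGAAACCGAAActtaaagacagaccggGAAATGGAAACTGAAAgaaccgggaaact
Herc6 chr6:57581397-57581496: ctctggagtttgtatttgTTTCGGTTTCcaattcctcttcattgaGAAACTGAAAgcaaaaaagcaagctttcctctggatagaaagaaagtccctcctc
Gm8369 chr19:11494679-11494778: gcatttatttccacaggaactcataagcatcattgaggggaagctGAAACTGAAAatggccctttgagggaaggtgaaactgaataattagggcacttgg
Serpina3f chr12:104214378-104214476: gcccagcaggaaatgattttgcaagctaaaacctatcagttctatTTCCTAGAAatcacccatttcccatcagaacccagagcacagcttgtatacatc
Sh2d4b chr14:40681877-40681975: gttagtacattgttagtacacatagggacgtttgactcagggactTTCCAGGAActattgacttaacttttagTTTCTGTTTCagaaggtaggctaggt
B2m chr2:122147503-122147602: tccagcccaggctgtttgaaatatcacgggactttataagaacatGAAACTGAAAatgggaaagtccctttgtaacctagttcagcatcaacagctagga

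Libraries held between 6134428 and 9549241 counts in consensus peaks in the alone arm and between 7476311 and 12191042 in the NK arm. The NK arm was deeper by 1.32-fold (1.07-fold in C and 1.61-fold in D; exact two-sided permutation test within lines, p = 0.035, where 0.005 is the smallest of the 400 permutations). In each library 36111 to 51530 peaks overlapped a peak call when cells were alone and 51081 to 55671 with NK cells. On the first principal component (35.1% of the variance) C with NK replicate 2 lay at one end and D alone replicates 2 and 3 at the other. The promoter peaks of all 9 leukaemia markers checked, among them Pax5 and Ebf1, were called in all 12 libraries. Of 12 NK cell markers, Ncr1, Klrk1 and Ifng had no consensus peak and Gzma was called in 0 libraries, while Klrb1c, Klrd1 and Eomes were called in all 12, in both arms. None of 6 myeloid markers was called in all 12, and the Mpeg1 peak was higher with NK cells by 0.54 ± 0.15 (log2, SE; edgeR adjusted p = 0.0156), below the fold threshold. Levels were also summed over the tested promoter peaks of longer gene lists, which held 35 NK cell markers (16 tested) and 15 myeloid markers (6 tested). The NK cell list was at 165 to 179 CPM (counts per 1000000 counts in tested peaks, after TMM scaling) alone and 161 to 179 with NK cells. The myeloid list was at 51.6 to 61.3 and 59.1 to 68.9. In sorted bulk cells, a change in the share of a cell type and a change of signal within cells cannot be told apart.

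Of 256400 consensus peaks, 46181 were tested with edgeR, namely those that overlapped a call in all 3 replicates of at least 1 group and passed the count filter. With cell line as a block, a peak was called gained or lost if its adjusted p did not exceed 0.05 and its log2 fold change reached 0.58 in either direction. With NK cells 1472 peaks gained accessibility (3.19% of those tested) and 483 lost it (1.05%), so that 75.3% of the calls were gains. Each of the 1472 gains and 483 losses had the same sign in both lines, which a call on the effect over both lines favours. The median log2 fold change was 0.77 for gains and -0.68 for losses. A log2 change of 1 or more was reached by 306 gains and 36 losses, and 2 or more by 26 gains. The depth difference moved with this comparison, and its part in the counts was not tested. With an intensity-dependent (loess) scaling the counts were 1174 and 687 (63.1% gains), and without the 3 libraries at the ends of the first component, left out after seeing the data, they were 1164 and 751.

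The balance of gains and losses moved with which peaks were admitted, and scaling was computed on the admitted peaks. Of the gains, 877 entered only because they were called in all 3 replicates of an NK group, the arm in which they are high, as did 66 of the losses and 9456 of all tested peaks. Only through an alone group came 193 of the losses, 0 of the gains and 1505 peaks in all. Among the 35220 peaks admitted through both arms, 595 (1.69%) gained and 224 (0.636%) lost, with medians of 0.70 and -0.66. When no peak call was required, 4374 peaks gained and 7388 lost, and gains were 37.2% of the calls. That setting added 85058 mostly weak peaks with a median log2 fold change of -0.20, and of the original calls all 1472 gains but 205 of the 483 losses were still called. The added peaks held 1620 of its gains and 7183 of its losses. Scaling moved too: the median over the originally tested peaks was 0.12 in that setting, against 0.00. The parts of admission and scaling were not tested apart.

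**Figure D1:**
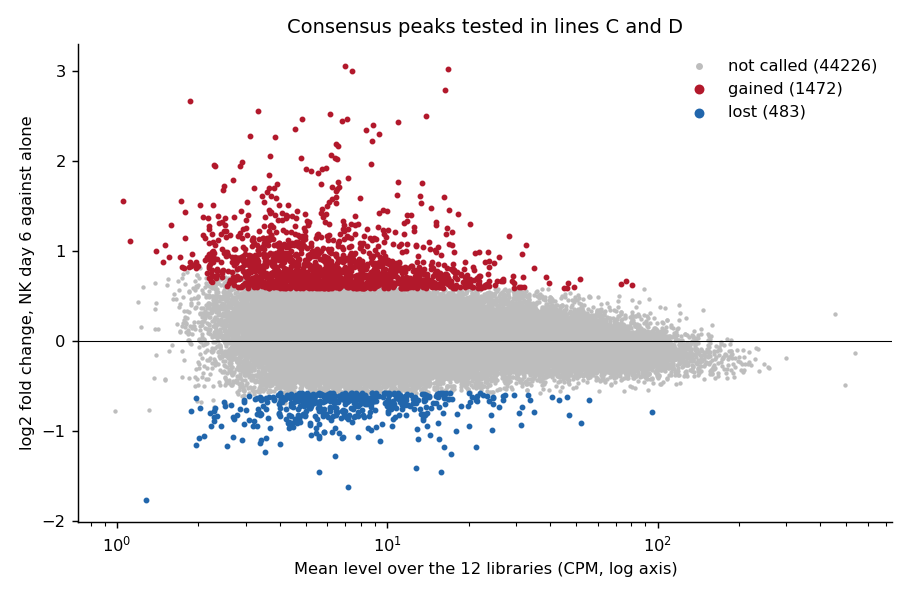
Log2 fold change (NK day 6 against alone, vertical axis) of each of the 46181 tested peaks against its mean level over the 12 libraries in CPM (log axis). Red points are the 1472 gained peaks, blue points the 483 lost peaks and grey points the peaks not called; the gained peaks reach 3.05 and have a median level of 5.99 CPM, against 12.6 CPM over all tested peaks.

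Gained peaks lay away from promoters. Of the gains, 21.7% had their centre within 3 kb of a transcription start site (TSS), against 42.6% of all tested peaks and 42.4% of the losses. The median distance to the nearest protein-coding TSS was 21323 bp for gains, 10425 bp for losses and 8597 bp over all tested peaks. Introns held 53.8% of the gains and exons 5.84%, compared with 46.4% and 18% of the tested peaks. Of the 19680 promoter-proximal peaks tested, 319 gained (1.62%) and 205 lost (1.04%). The median log2 fold change was -0.06 within 3 kb of a TSS and 0.05 beyond it. In both lines all 3 NK libraries lay above all 3 alone libraries at 1039 of the 1472 gains, a pattern that 5.14% of all tested peaks showed, and below them at 252 of the 483 losses, a pattern that 3.94% showed. The calls rest on the same libraries, which favours both patterns. A peak called in all 6 NK libraries and in 0 of the 6 alone libraries was seen at 148 of the gains and at 281 tested peaks in all (0.608%), a pattern that admission through the NK groups favours.

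Levels below are given in CPM in the order of replicates 1, 2 and 3. Fold changes are log2 values with their SE, and adjusted p-values are those of edgeR over all 46181 peaks. Positions are GRCm38 and gene names come from GENCODE M21. The leading gains were taken by rule as those of largest fold among peaks separated in both lines. That their arms lie apart within each line follows from this rule and is no further evidence.

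The largest of these gains lay 8647 bp from Ubd, which encodes the ubiquitin-like modifier FAT10, induced by IFN-γ (chromosome 17, 37184494 to 37185997, at the pseudogene Olfr753-ps1). Its level was 1.73, 2.22 and 1.09 CPM in C alone and 1.49, 0.213 and 1.76 in D alone. With NK cells it was 9.37, 13.4 and 9.6 CPM in C and 16.6, 15.7 and 10.7 in D. The arms did not overlap, which the rule favours. The peak was called in all 6 NK libraries and in 0 alone libraries, so it had been admitted through the NK groups only. It rose by 3.05 ± 0.23 on the log2 scale (adjusted p = 4.01e-09).

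A 240 kb stretch of chromosome 18 (60201590 to 60441463) that carries the IRG genes Iigp1, Gm4951, Gm4841 and F830016B08Rik held 13 tested peaks, and all 13 gained, with a median of 2.22. Summed over these peaks, the level was 33.5, 37.8 and 31.8 CPM in C alone and 38.3, 24.7 and 30.2 in D alone. In the NK arm it was 126, 205 and 126 CPM in C and 188, 195 and 151 in D. Every NK library was thus above every alone library, and C with NK replicate 2 was the highest. The bounds of this stretch were set by its gained peaks, which favours a high share of gains and separate arms. Iigp1 (Irga6) is an effector GTPase of the family. Its upstream peak (60373257 to 60377106, 846 bp from the TSS) held 2.93, 4.73 and 3.8 CPM in C alone and 3.3, 2.77 and 4.41 in D alone. NK libraries held 24.7, 33.7 and 24.5 CPM in C and 33.5, 33.9 and 29.9 in D, a rise of 3.01 ± 0.14 (adjusted p = 6.83e-13). The second Iigp1 peak, within the gene, rose by 2.22 ± 0.21, the Gm4951 promoter by 2.78 ± 0.17 and an intronic peak 27696 bp from the Gm4951 TSS by 2.99 ± 0.20. Gm4841 gained 2.47 ± 0.20 and F830016B08Rik 2.39 ± 0.20 at their promoters.

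Serpina3f, a serine protease inhibitor of the α1-antichymotrypsin family, gained at a peak 203 bp from its TSS (chromosome 12, 104213545 to 104215139, intergenic), where the GAS-like letters shown above lie. C alone held 3.72, 3.1 and 2.85 CPM and D alone 5.29, 5.11 and 4.85. C with NK cells held 19.5, 21.4 and 15.4 CPM and D with NK cells 27.9, 26.6 and 30.7. The 4 groups were separate, D was above C in each arm, and the rise was 2.50 ± 0.12 (adjusted p = 1.72e-12). Its neighbour Serpina3g, an inhibitor of lysosomal cathepsins, was at 1.22 to 2.97 CPM in the alone libraries and 2.49 to 8.39 with NK cells. It gained 1.58 ± 0.22 (adjusted p = 3.52e-05), and all 3 NK libraries exceeded all 3 alone libraries in each line.

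The other leading gains were not at promoters of list genes. A peak on chromosome 9 (41439064 to 41440217) rose by 2.52 ± 0.18. It lay in an intron of non-coding transcripts, 20589 bp from the TSS of Gm48739 and 277943 bp from that of its nearest coding gene, Ubash3b. The peak was at 0.852 to 2.43 CPM in the alone libraries and at 7.75 to 13.7 CPM with NK cells, and all 5 tested peaks of that 103 kb stretch gained. In the Ms4a region of chromosome 19 (11484168 to 11612331), where genes of tetraspan-like membrane proteins lie, 7 of 8 tested peaks gained with a median of 1.86. The peak in Gm8369 there was at 1.7 to 2.51 CPM alone and 8.75 to 14.8 CPM with NK cells (2.44 ± 0.16), and a peak in 1700017D01Rik, on the same chromosome, gained 2.35 ± 0.23. Peaks far from the start of any coding gene gained too: 171662 bp from Sh2d4b (2.43 ± 0.19), 47383 bp from the Nrxn3 TSS in an intron (2.34 ± 0.21) and 1525627 bp from Pcdh17 (4.84-fold). The first and last of these lay 65584 bp and 25099 bp from the non-coding Gm48040 and Gm49051. The bounds of the chromosome 9 stretch and of the Ms4a region were set by their gained peaks, which favours high shares of gains.

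**Figure D2:**
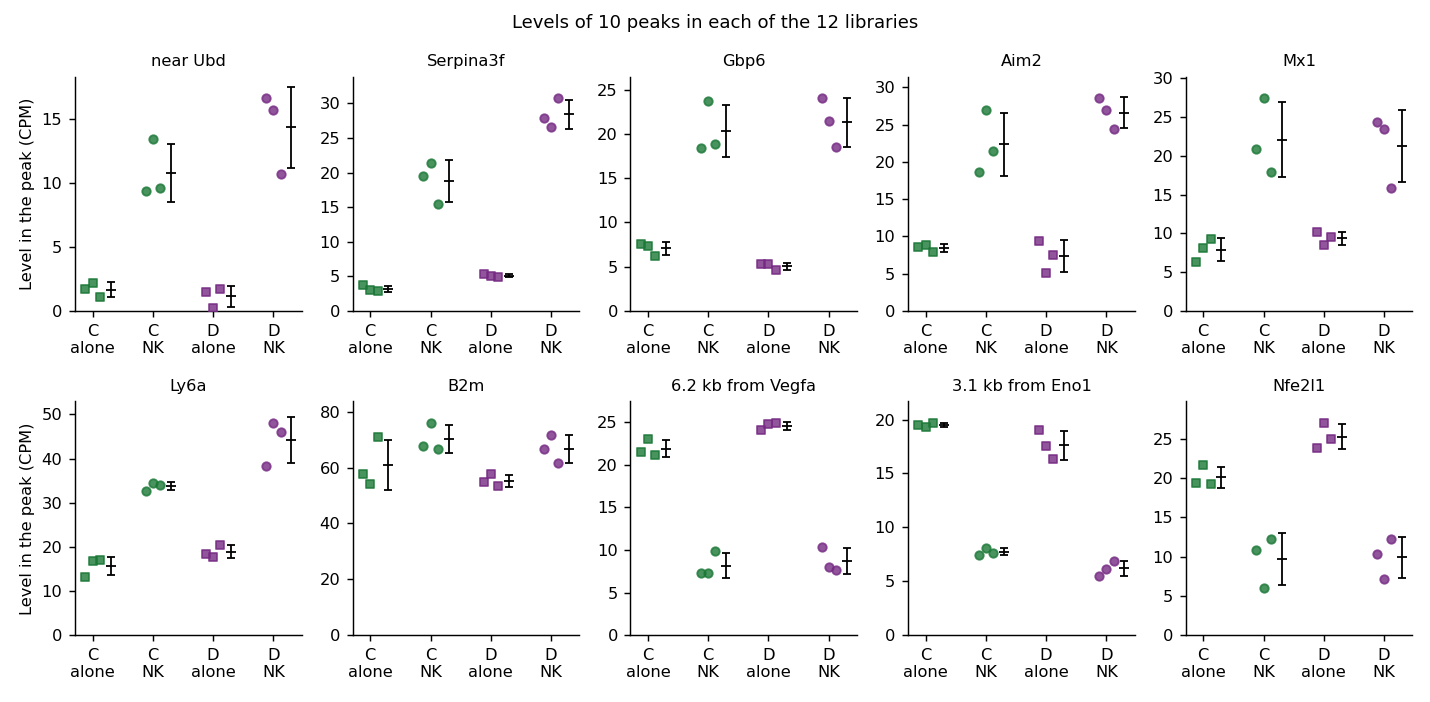
Level (CPM, vertical axis, from 0) of 10 peaks in each of the 12 libraries, for lines C (green) and D (purple), with squares for cells alone, circles for cells with NK cells, and black bars for the mean ± SD of 3 libraries. The arms are apart at Ubd, Serpina3f, Gbp6, Aim2, Mx1 and Ly6a, overlap across the lines at B2m (53.4 to 70.9 CPM alone, 61.7 to 76 with NK cells), and are apart in the opposite direction near Vegfa, near Eno1 and at the intronic Nfe2l1 peak.

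Promoter peaks were then read by gene list, taking for each gene the tested peak nearest to a TSS within 3 kb. All 27 GTPase genes of the IFN-γ response had such a peak: 12 gained, 0 lost and 15 were not called, with a median of 0.52, against -0.06 over all promoter peaks. Of those 27, 7 had been admitted through the NK groups alone, 6 of them gained. Summed over the list, the level was 482 to 573 CPM in the 6 alone libraries and 662 to 824 CPM in the 6 NK libraries. Away from promoters, 20 of 40 peaks within 100 kb of these genes gained, where 4.35% of all tested peaks beyond 3 kb of a TSS did. Among the GBPs, which coat pathogen vacuoles, Gbp6 was at 7.58, 7.38 and 6.25 CPM in C alone and 5.29, 5.32 and 4.63 in D alone. NK libraries of C held 18.4, 23.7 and 18.8 CPM and those of D 24, 21.4 and 18.5. The arms did not overlap, and Gbp6 rose by 1.75 ± 0.13 (adjusted p = 2.92e-09). Gbp10 rose by 1.39 ± 0.14, Gbp11 by 0.63 ± 0.13, Gbp2b by 0.63 ± 0.14 and Gbp2 by 0.58 ± 0.10, the last at the threshold. Calls here rested on single libraries: Gbp11 was not called without D with NK replicate 3, Gbp2b without replicate 2 of either NK group, and Gbp2 lost its call in 12 alternatives. Gbp11 and other GBPs of this chromosome 5 cluster are near-identical copies, so reads may be shared between them.

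Of the IRGs on chromosome 11, Gm12185 (48925669 to 48928802, 56 bp from the TSS) was at 8.11, 9.3 and 8.15 CPM in C alone and 9.25, 10.6 and 8.38 in D alone. It was at 21.7, 22.7 and 20.9 CPM in C with NK cells and 27.3, 29.9 and 26.3 in D. Both arms were tight and separate, with a rise of 1.45 ± 0.10 (adjusted p = 1.15e-09). The near-identical Tgtp1 and Tgtp2 (Irgb6) gained 0.96 ± 0.09 and 0.95 ± 0.13. Members not called included Gbp4 (0.52 ± 0.09), Ifi47 (0.52 ± 0.10), Irgm1 (0.36 ± 0.08), Igtp (0.20 ± 0.12) and Gbp9 (0.09 ± 0.09). Irgc1, a testis-expressed member, was the lowest at -0.43 ± 0.10.

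Of 65 antiviral interferon-stimulated genes, 58 had a tested promoter peak, and 11 gained, 0 lost and 47 were not called, with a median of 0.42. At the adjusted p alone, without the fold threshold, 31 were higher and 0 lower. The summed level was 1273 to 1372 CPM alone and 1544 to 1694 CPM with NK cells. Aim2, the cytosolic DNA sensor that builds an inflammasome, was the largest of them. It was at 8.64, 8.86 and 7.88 CPM in C alone, 9.42, 5.11 and 7.5 in D alone, 18.7, 26.9 and 21.4 in C with NK cells and 28.5, 26.9 and 24.4 in D with NK cells. The arms were apart and the rise was 1.59 ± 0.13 (adjusted p = 1.52e-08). Mx1, a dynamin-like antiviral GTPase, gained 1.32 ± 0.14, Lgals3bp, a galectin-binding glycoprotein, 1.30 ± 0.12, and Rtp4, a chaperone of surface receptors, 1.19 ± 0.14. Smaller gains were seen at Ifit3 (0.83 ± 0.15), Herc6 (0.74 ± 0.13), Ifit3b (0.71 ± 0.11), Ifit1bl1 (0.69 ± 0.13) and Ifi27 (0.62 ± 0.10), and at 1 peak shared by Ifi203 and Mndal (0.66 ± 0.13), which was not called without C with NK replicate 2. Beyond promoters, 7 of 47 peaks within 100 kb of antiviral genes gained, where 4.35% of all tested peaks beyond 3 kb of a TSS did. Isg15 (0.06 ± 0.09), Usp18 (0.05 ± 0.16) and Bst2 (0.11 ± 0.07), all common interferon-stimulated genes, were not called.

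No signalling gene of the pathway was called at its promoter. The list of interferon signalling and feedback had 28 tested genes and a median of 0.01, and 3 of 89 peaks farther out gained. For a list of this size both counts are near the shares over all tested peaks. Those were 1.62% gained and 1.04% lost within 3 kb of a TSS, and 4.35% gained beyond it. Irf1, a transcription factor that IFN-γ induces, differed by 0.01 ± 0.09, Socs1, the feedback inhibitor, by -0.02 ± 0.08 and Jak2 by -0.06 ± 0.08. Irf8 (0.23 ± 0.08) was higher and Ifngr1, a chain of the IFN-γ receptor, lower (-0.27 ± 0.07) at the adjusted p alone.

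MHC genes likewise had 0 calls, among 28 tested promoters of class I presentation (median 0.11) and 15 of class II (median 0.13). For lists of this size that is near the share over all tested peaks within 3 kb of a TSS (1.62% gained, 1.04% lost). B2m was at 57.6, 54.1 and 70.9 CPM in C alone and 54.8, 57.7 and 53.4 in D alone. With NK cells it was at 67.8, 76 and 66.6 CPM in C and 66.5, 71.8 and 61.7 in D, and C alone replicate 3 reached the NK range. The difference was 0.23 ± 0.08 (adjusted p = 0.0455), below the fold threshold. Class I genes higher at the adjusted p alone were also H2-M3 (0.45 ± 0.09), H2-T24 (0.38 ± 0.09), Psmb8 (0.30 ± 0.09), Tapbpl (0.27 ± 0.08) and H2-T22 (0.26 ± 0.08). H2-K1 differed by 0.12 ± 0.07, the peptide transporter Tap1 by 0.14 ± 0.08, the class I activator Nlrc5 by 0.02 ± 0.08, the class II activator Ciita by 0.17 ± 0.09 and the invariant chain Cd74 by -0.02 ± 0.07.

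Among ligands that NK cells read, 0 of 12 tested genes for activating ligands and adhesion were called (median -0.07). For a list of this size that is near the share over all tested peaks within 3 kb of a TSS (1.62% gained, 1.04% lost). Raet1e, a ligand of NKG2D, differed by -0.20 ± 0.09 and Nectin2, a ligand of DNAM-1, by -0.49 ± 0.10, the latter past the adjusted p alone. In the other direction Clec2d (0.35 ± 0.08) and Clec2i (0.32 ± 0.07), ligands of NKR-P1 receptors, and Cd48, the ligand of 2B4 (0.27 ± 0.09), were higher at the adjusted p alone, so that 3 were higher and 1 lower. Clec2d also stands in the list of inhibitory ligands, so this tally is not one of activating ligands only. Of 14 tested inhibitory ligands 1 gained, Cd86, the B7 ligand of CD28 and CTLA-4 (0.84 ± 0.19, adjusted p = 0.00442), and this peak had been admitted through the NK groups only. It was at 1.48 to 3.86 CPM alone and 4.05 to 6.37 CPM with NK cells. Cd274, which encodes PD-L1, differed by 0.29 ± 0.09. Of 6 tested Ly6 genes, Ly6a (Sca-1, a surface protein of stem cells and lymphocytes) gained. Its peak upstream of the TSS (chromosome 15, 74995796 to 75000804) was at 13.3, 16.8 and 17 CPM in C alone, 18.5, 17.7 and 20.5 in D alone, 32.7, 34.5 and 34.1 in C with NK cells and 38.3, 48.1 and 46 in D with NK cells. No NK library overlapped an alone library, and the rise was 1.16 ± 0.09 (adjusted p = 7.26e-09). Ly6e differed by 0.24 ± 0.09.

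Of 29 inhibitors of killing and regulators of death 3 gained, Serpina3f, Serpina3g and Casp1, with a median of 0.00 over the list, and 2 of the 3 had been admitted through the NK groups only. Casp1, the inflammatory caspase, gained 0.70 ± 0.21 (adjusted p = 0.0289), but its arms overlapped (6.18 to 13.8 CPM alone, 7.73 to 27.4 with NK cells), and it was not called in 9 of 23 alternatives, with 0.50 without C with NK replicate 2. Serpinb9, the granzyme B inhibitor, was higher by 0.31 ± 0.09 and the death receptor Fas by 0.54 ± 0.12, both past the adjusted p alone, as was Mlkl (0.44 ± 0.12), the effector of necroptosis. Ripk3 (-0.42 ± 0.10), a kinase of the same pathway, the pro-apoptotic Bax (-0.33 ± 0.09) and Bbc3 (-0.32 ± 0.07) and the anti-apoptotic Bcl2l1 (-0.32 ± 0.09) were lower. Counted without the fold threshold, 6 genes of this list rose and 4 fell. Of 13 chemokine genes, Ccl12 (1.30 ± 0.18), Ccl2 (1.09 ± 0.19) and Ccl9 (0.80 ± 0.13) gained. They encode attractants of monocytes, all 3 had been admitted through the NK groups only, and Ccl2 was at 1.2 to 2.51 CPM alone and 3.94 to 5.03 CPM with NK cells. Cxcl10 (0.26 ± 0.17) and Ccl5 (0.19 ± 0.18) were not called. Within the STAT5 output list, read because BCR/ABL activates STAT5, Il2ra (0.61 ± 0.14) was called gained and no other of the 17 tested genes was called. Over all tested peaks within 3 kb of a TSS, 1.62% gained. The Il2ra peak had been admitted through the NK groups only, and its call was lost without D alone replicate 2 or 3, C with NK replicate 1 or D with NK replicate 2 (0.51 to 0.73 over 22 alternatives).

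Lists of other processes had 0 calls, near the share over all tested peaks within 3 kb of a TSS (1.62% gained, 1.04% lost). They were the targets of TNF and NF-κB (25 tested, median -0.15), B cell identity and the pre-BCR (39, median 0.00), the cell cycle (27, median -0.07), housekeeping promoters (18, median -0.14), and markers of NK cells (16, median -0.10), T cells (5, median 0.04) and myeloid cells (6, median 0.21). Pax5 (-0.00 ± 0.10) and Ebf1 (-0.06 ± 0.08), regulators of B cell fate, were not called. Relb (-0.43 ± 0.07), an NF-κB subunit, was lower and Tnip3 (0.56 ± 0.11), an NF-κB feedback inhibitor, higher at the adjusted p alone. Of 15 tested genes that the study had picked in part on these samples, which makes them no independent evidence, 5 gained: Iigp1, Mx1, Ly6a, Pla2g16 (0.75 ± 0.11) and Ifi27.

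**Figure D3:**
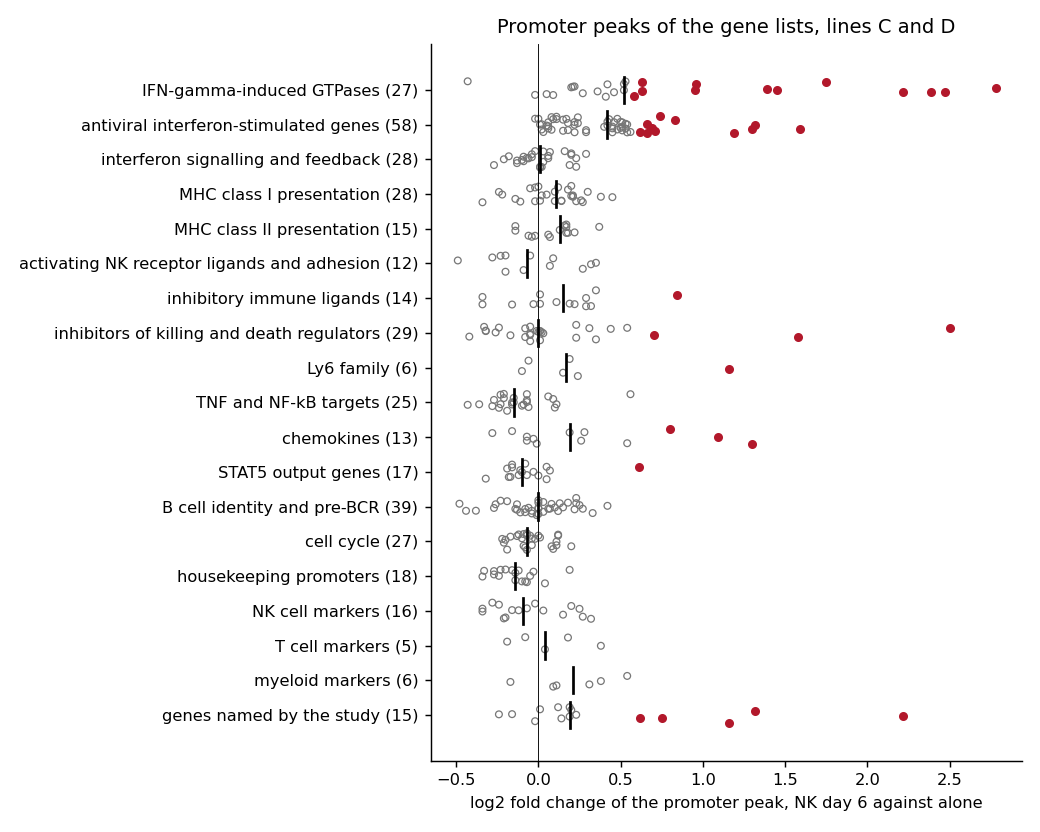
Log2 fold change (NK day 6 against alone, horizontal axis) of the promoter peak of each gene, by gene list, with the number of genes tested in brackets. Red points are called, open grey points are not, and black lines are list medians, which are highest for the GTPases (0.52) and the antiviral genes (0.42).

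The losses were smaller than the gains, with no absolute value over 1.78. The largest among peaks separated in both lines with a mean of at least 2 CPM lay in an exon 15400 bp from the Gpr137c TSS (chromosome 14, 45279000 to 45282454). It was at 14.4, 10.5 and 13 CPM in C alone and 10.1, 8.73 and 8.16 in D alone, and at 5.08, 4.05 and 3.47 in C and 2.93, 2.8 and 2.61 in D with NK cells. The arms were apart in both lines, as that choice required, and it fell by 1.63 ± 0.14 on the log2 scale (adjusted p = 3.9e-08). An intergenic peak 6198 bp from Vegfa, the angiogenic growth factor (chromosome 17, 46013572 to 46016778), was at 21.5, 23 and 21.1 CPM in C alone and 24, 24.7 and 24.9 in D alone. NK libraries held 7.28, 7.29 and 9.83 CPM in C and 10.4, 8.05 and 7.62 in D. All 6 were below all alone libraries, which the same choice favours (-1.46 ± 0.11, adjusted p = 2.92e-09). A peak 3109 bp from Eno1, a glycolytic enolase (chromosome 4, 150249401 to 150251949), was at 16.3 to 19.7 CPM alone and 5.52 to 8.1 CPM with NK cells (-1.42 ± 0.11, adjusted p = 2.92e-09).

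Further leading losses lay in a Zfhx4 intron (-1.46 ± 0.14), 5201 bp from the lactate dehydrogenase gene Ldhc (-1.28 ± 0.15), and in an intron 402 bp from a TSS of Nfe2l1, which encodes a regulator of proteasome genes (-1.18 ± 0.14; 19.2 to 27 CPM alone, 5.99 to 12.3 with NK cells). A stronger Nfe2l1 peak, 27 bp from a TSS, was not called (-0.24 ± 0.08, adjusted p = 0.0613). Its mean was 100 CPM alone and 84.7 CPM with NK cells. Duxf3 (-1.19 ± 0.17) belongs to a repeated array and Gm47283 (-1.14 ± 0.24) lies on chromosome Y, and both were taken as uncertain. Some further peaks were looked up after these values were seen, so their choice is not independent and they were not tested as a list. Peaks 12156 bp from Bnip3, a mitophagy receptor (-0.99 ± 0.11), and in an intron of Egln3, a prolyl hydroxylase (-0.65 ± 0.12, not called without D alone replicate 2), were lost. Promoter peaks of the glucose transporter Slc2a1 (-0.42 ± 0.08), of Pfkfb4 (-0.42 ± 0.08), a regulator of glycolysis, of Bnip3l (-0.33 ± 0.07), of the pyruvate dehydrogenase kinase Pdk1 (-0.32 ± 0.07) and of Ndrg1 (-0.32 ± 0.07) were lower at the adjusted p alone. In all 7 the 3 NK libraries of each line lay below the 3 alone libraries, as at 3.94% of all tested peaks. The way these 7 were chosen favours that pattern, so it is a description only.

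Gains also came in runs along the chromosomes. With gaps of at most 100 kb, 14 stretches held 5 or more gained peaks each, 121 in all. These stretches were found from the gains themselves and are a description. The one with most gains lay among variable gene segments of the immunoglobulin heavy chain (chromosome 12, 114990632 to 115809157), where 25 of 62 tested peaks gained and 0 were lost, with a median of 0.56 and no single peak over 0.91. Its summed level was 568, 570 and 691 CPM in C alone, 584, 660 and 682 in D alone, 835, 868 and 887 in C with NK cells and 853, 897 and 938 in D with NK cells. All NK libraries lay above all alone libraries. The segments resemble each other in sequence, so reads may be shared among them. A κ light chain stretch on chromosome 6 (69184536 to 69404448) held 8 gains among 14 tested peaks (median 0.60), the Gbp cluster of chromosome 5 held 15 among 24 (median 0.71) and the Ifit cluster of chromosome 19 held 6 among 8 (median 0.68).

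Within line C alone 546 peaks gained (1.18%) and 154 were lost (0.333%), and within line D 1743 gained (3.77%) and 701 were lost (1.52%). At the peaks called over both lines, the median was 0.67 in C and 0.94 in D for gains and -0.66 and -0.76 for losses. The difference between the lines was tested itself, and 0 of 46181 peaks (0%) passed with edgeR. At an unadjusted p under 0.05 there were 3037 (edgeR) and 1925 (DESeq2 interaction term, added after seeing the data, which also gave 0 calls), and the smallest adjusted p of edgeR was 0.753. Without C with NK replicate 2, 27 peaks differed, 15 with the more positive effect in C and 12 with the more positive effect in D. A larger count in D is therefore not shown to be a larger response. Pla2g16, a phospholipase, gained 1.03 ± 0.14 in C and 0.47 ± 0.14 in D, a difference of 0.56 ± 0.20 (adjusted p = 0.753), while Herc6 was at 1.08 ± 0.18 in D against 0.46 ± 0.16 in C (adjusted p of the difference 0.753).

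Lines A and B, barcoded from another parental line, had been sampled in the same experiment at day 6, and the effect of NK cells could be compared between the pairs of lines. The effect was higher in C and D at 4 peaks (0.00866%) and lower at 31 (0.0671%). At the gains of C and D, which were picked on their own values, the median was 1.0 in A and B against 0.77, and 1170 of them (79.5%) were also called there, where 7.29% of all tested peaks gained. At the losses it was -0.49 against -0.68, and 146 (30.2%) were called, where 2.4% of all were lost. The Gm8369 peak gained 2.44 in C and D and 4.24 in A and B (difference -1.76 ± 0.29, adjusted p = 0.0213), and Gbp11 gained 0.63 and 1.61 (difference -0.96, adjusted p = 0.048). In the other direction an intronic Tmc7 peak was at -1.31 in A and B and at -0.21 in C and D (1.11 ± 0.15, adjusted p = 0.00366).

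Lines C and D had also met NK cells in 6 other combinations of line and experiment, sampled at day 4. These 35 libraries share none with the 12, but day and experiment cannot be told apart. At the same 46181 peaks 677 gained (1.47%) and 62 were lost (0.134%). Of the day 6 gains, 530 were also gained at day 4, which is 36% of the day 6 gains and 78.3% of the day 4 gains. Of the losses, 14 were shared, which is 2.9% of those at day 6 and 22.6% of those at day 4. The sign was the same at 91.1% of the gains and 89.9% of the losses, whereas 46.9% and 53.1% of all tested peaks had those signs at day 4. Medians were 0.43 against 0.77 for gains and -0.21 against -0.68 for losses, where the day 6 values had chosen the peaks.

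Tested directly, the effect was higher at day 6 at 418 peaks (0.905%) and lower at 217 (0.47%). At 3 leading GTPase peaks the difference did not pass the test, which does not show equality: Iigp1 upstream was at 3.01 and 3.02 (difference -0.05 ± 0.18), Gbp6 at 1.75 and 1.63 (0.12 ± 0.14) and Gm12185 at 1.45 and 1.36 (0.12 ± 0.10). Gbp2b was at 0.63 and 0.10 (0.52 ± 0.15, adjusted p = 0.024, below the fold threshold). Aim2 was at 1.59 and 0.92 (0.68 ± 0.14, adjusted p = 0.00292), and Ccl2 at 1.09 and 0.07 (1.02 ± 0.23, adjusted p = 0.00425). The leading losses differed between the days. Vegfa was at -1.46 and -0.12 (-1.35 ± 0.17, adjusted p = 1.8e-06), Gpr137c at -1.63 and 0.02 (-1.67 ± 0.27, adjusted p = 0.000113), Eno1 at -1.42 and -0.31 (-1.13 ± 0.17, adjusted p = 4.18e-05) and Nfe2l1 at -1.18 and -0.00 (-1.15 ± 0.24, adjusted p = 0.00243). In lines A and B at day 6 of the same experiment these 4 peaks were at -1.19, -0.54, -1.12 and -1.84. The heavy chain stretch had a median of 0.56 at day 6, -0.01 at day 4 and 0.35 in A and B.

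**Figure D4:**
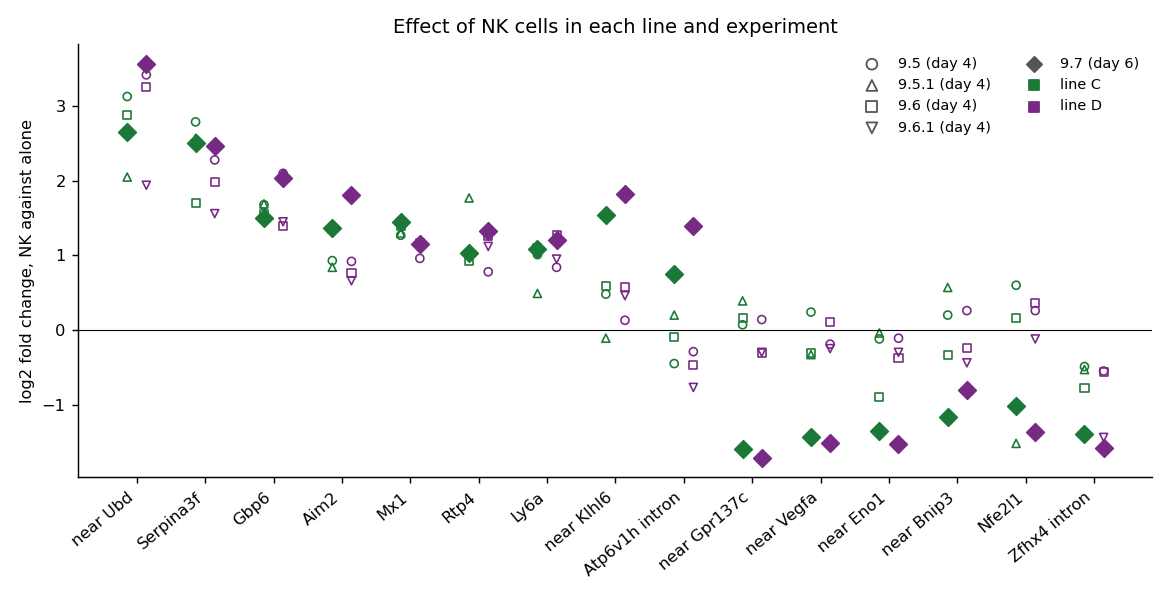
Log2 fold change of NK against alone (vertical axis) at 15 peaks, computed within each line (C green, D purple) and experiment; filled diamonds are experiment 9.7 at day 6 and open symbols the day 4 experiments. At Gbp6 both day 6 symbols sit among the day 4 symbols, near Ubd the one of D (3.57) and at Mx1 the one of C (1.45) lie above them, and near Vegfa, Gpr137c and Eno1 both lie below.

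At day 16 only cells with NK cells were sampled, and they could be set only against the same 6 alone libraries, so the values below share their controls with those at day 6. Between the NK libraries of both days, 6.99% of all tested peaks were higher at day 16 and 10.7% lower. Of the 1472 gains, which the day 6 libraries had chosen, 559 were lower at day 16 and 8 higher, and their median against the alone libraries was 0.38. Of the 483 losses 70 were weaker and 79 stronger, with a median of -0.76 against -0.68. Named peaks went either way. Serpina3f was at 2.50 at day 6 and 3.09 at day 16, Ly6a at 1.16 and 1.04, and Gm8369 at 2.44 and 2.67. Iigp1 upstream was at 3.01 and 1.86, Gm12185 at 1.45 and 0.40, Rtp4 at 1.19 and 0.24 and Herc6 at 0.74 and -0.05. Vegfa was at -1.46 and -0.41, Eno1 at -1.42 and -0.22 and Zfhx4 at -1.46 and -1.88.

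The letters of known motifs were counted in each set of peaks. ISRE-like letters were in the central 500 bases of 25.9% of the 1472 gains, 4.19% of the 477 losses that could be searched and 7.48% of the 46142 tested peaks that could be searched, and in 39.5% of the 306 gains of 1 or more on the log2 scale. GAS-like letters were in 21.9%, 11.7% and 14.6%, and AP-1-like letters (TGANTCA) in 21.8%, 8.6% and 13.9%. Letters of κB-like sites were in 7.34%, 15.7% and 12.4%, EBF-like letters (TCCCNNGGGA) in 1.29%, 3.98% and 3.18%, and ETS-like letters (CCGGAA) in 3.87%, 10.7% and 12.8%. Base composition moved with the calls: the median GC content was 44% in gains, 53.4% in losses and 49.8% in all, and its part in these shares was not tested. Among gains within 3 kb of a TSS the ISRE-like share was 25.7% against 5.92% of all tested peaks there, and beyond 3 kb 25.9% against 8.64%. Over whole peaks the shares of gains and of all tested peaks lay closer for GAS-like (48.2% and 44%) and AP-1-like letters (48.6% and 42.3%).

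The ISRE-like windows printed above belonged to Gm12185, Rtp4, Herc6, Gm8369 and Sh2d4b, which gained between 0.74 and 2.44. The Rtp4 window held overlapping copies and Gm12185 and Sh2d4b held GAS-like letters beside them, whereas Serpina3f held GAS-like letters only in its window. The B2m window held GAAACTGAAA as well, and its peak differed by 0.23 ± 0.08. The letters ACGTG or GCGTG, searched after the losses were seen, were in 27.9% of gains, 46.8% of losses and 50.9% of all. A match is a description of letters, not of a bound factor, and a peak could hold several of these motifs.

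**Figure D5:**
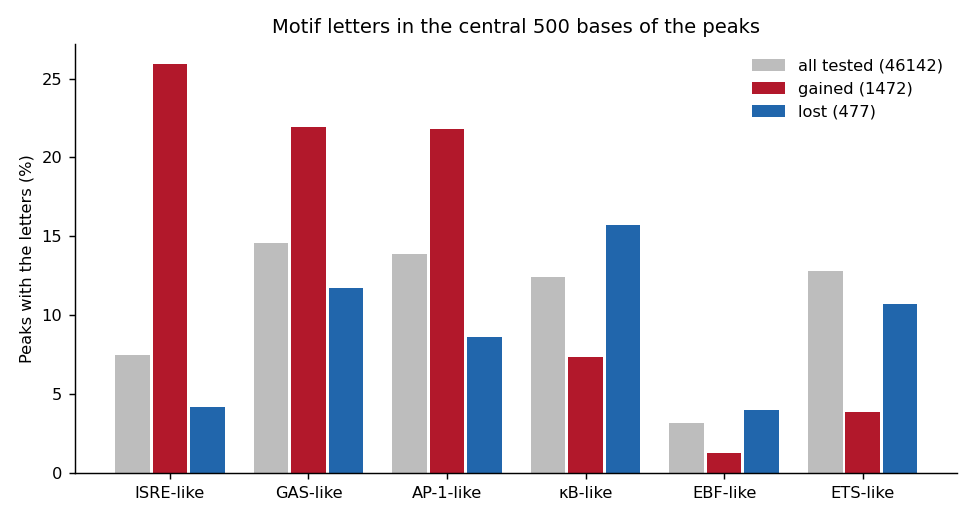
Share of peaks (%, vertical axis, from 0) whose central 500 bases hold each set of letters on either strand, for all searched peaks (grey, 46142), gains (red, 1472) and losses (blue, 477). ISRE-like letters are in 25.9% of the gains, 4.19% of the losses and 7.48% of all.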

How the data were processed

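ATAC-seq had been done on sorted GFP+ B-ALL cells. The authors aligned reads to GRCm38 with STAR (version not given in the sources used here), processed them with Picard 2.27.4, called broad peaks per library with MACS2 2.2.7.1, merged them into consensus peaks and counted reads in these with featureCounts 2.0.1, requiring a fractional overlap of 0.2. The deposited table holds raw counts per consensus peak and library (0-based starts, printed here plus 1). The deposited peak lists give, per the file format, a −log10 q-value for each broad peak, and were used here only for which libraries had a peak.

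Libraries were grouped by the titles given by the submitters. Counts of the 12 libraries were tested with edgeR 4.0.16 in R 4.3.3 (TMM scaling, quasi-likelihood test, filterByExpr, Benjamini-Hochberg over all 46181 peaks, cell line as covariate, common biological coefficient of variation 0.106). The study itself used DESeq2 with the same thresholds, peaks near a TSS and calls in every replicate. DESeq2 1.42.0 served as an alternative. Genes came from GENCODE M21, and a promoter peak was the tested peak nearest to a TSS within 3 kb. Motif letters were searched on both strands in RefSeq GRCm38.p6, leaving out 39 tested peaks on unplaced scaffolds. The comparison with day 4 used 35 libraries, of which 1 pair differed by less than sampling noise and was counted as 1 sample. Replicate numbers showed no sign of pairing libraries. The deviations of same-numbered libraries correlated between -0.165 and 0.188, and those of unlike-numbered libraries between -0.307 and 0.221. With so few libraries this check cannot exclude shared handling. The code was tested on simulated data: of 100 peaks changed by 0.8 on the log2 scale 95 were called, of 100 changed by 1.5 all 100, and of 45981 unchanged peaks 7. Changes were placed only in peaks above a minimum mean level, and no difference between lines was simulated. These shares therefore do not cover the weakest peaks.

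Named peaks were the 12 largest gains and 8 largest losses separated in both lines (at least 2 CPM, 1 per nearest gene), every list gene with a called promoter peak, a set of genes named whatever their result, and the 5 largest differences in each direction between lines C and D, between C and D and A and B, and between days. Further genes named from the lists, from stretches of gains or after the losses were seen were chosen once their values were known. Some genes of these sets are not reported here. The comparison, gene lists and motifs were chosen with earlier results of these data known. Alternatives covered scaling, tool, peak and count filters, the fold threshold, the replicate block, the day 16 arm, the sex chromosomes and each library in turn.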

Additional observations from a re-analysis of the deposited data

Results flagged for a closer look

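These results were singled out because the effect of NK cells differed between groups by a direct test (edgeR interaction term, adjusted over all tested peaks). They were the 5 largest differences in each direction, or fewer where fewer passed. Values are differences of log2 fold changes.

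Comparing C and D with A and B at day 6, the effect was lower in C and D near H2al1n (-2.30), in an Igbp1 intron (-1.78), at Gm8369 (-1.76), near Rasa1 (-1.64) and in a Cacna1d intron (-1.59). In A and B the log2 fold changes of these 5 peaks were 2.76, 2.56, 4.24, 2.10 and 2.53, and in C and D they were 0.42, 0.72, 2.44, 0.45 and 0.96. The effect was higher in C and D near Glrp1 (1.13), in a Tmc7 intron (1.11), near Opa1 (0.83) and near Adam6b, next to the diversity segments of the immunoglobulin heavy chain (0.71). At that last peak the level was 17 to 22 CPM alone and 23.2 to 30.2 CPM with NK cells. In A and B the 4 peaks were at -1.21, -1.31, -0.67 and -0.26.

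Comparing day 6 with the day 4 experiments within C and D, the effect was higher at day 6 in an Atp6v1h intron (1.39), at an exonic peak 82265 bp from Klhl6 (1.32), among κ light chain segments with Rpia as nearest coding gene (1.31), near Map3k7 (1.31) and in an Rnf17 intron (1.23). It was lower at day 6 near Gpr137c (-1.67), in an intron with Tcte2 as nearest coding gene (-1.37), near Vegfa (-1.35), in an intron with Paqr3 as nearest coding TSS (-1.34) and near Tdrd3 (-1.20). The day 4 values of these last 5 lay between -0.12 and 0.25. Day and experiment cannot be told apart here.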

How the results depend on the processing

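With no peak call required, 4374 peaks gained and 7388 were lost, against 1472 and 483 as reported. With calls in all 12 libraries required the counts were 337 and 85, with testing restricted to peaks within 3 kb of a TSS 419 and 136, and without the fold threshold 3688 and 3002. These settings changed the peaks tested, and with them the scaling, or the rule itself. Leaving out the 3 libraries at the ends of the first principal component, chosen after seeing the data, gave 1164 and 751, for which the cause was not tested. Leaving out 1 library at a time gave 1275 to 1745 gains and 376 to 653 losses. The replicate block, 6 pairs of line and replicate number, gave 1431 and 472, although the numbers showed no sign of pairing the libraries. It changed 1 of 82 named peaks, Gbp2, which sat at the fold threshold. Fitted on its own 6 libraries, line C had 353 gains and 79 losses, against 546 and 154. The count of peaks that differed between C and D was 0 to 27 when 1 library was left out, and 27 only without C with NK replicate 2. Between C and D and A and B, 21 peaks differed with the size factors of DESeq2, against 35. Of 61 named peaks that were called, 47 kept the call in every alternative that tested them, and of 1806 values 49 lost a call. No called peak changed sign, while 5 peaks that were not called and lay within 0.10 of 0 did under some alternatives. Over whole peaks, ISRE-like letters were in 49.7% of gains, 17% of losses and 24.3% of all. GAS-like letters were then in 48.2%, 38.4% and 44%, and AP-1-like letters in 48.6%, 31.7% and 42.3%. With 3 libraries in a group and weak peaks of a few CPM, small changes were not detectable at this depth, and intervals and errors cover these libraries only.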

Other observations

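Several gains lay in stretches outside the gene lists. In a 170 kb stretch of chromosome 16 (8915657 to 9085275) with 1810013L24Rik as nearest coding gene, all 7 tested peaks gained, with a median of 0.74 (0.44 in C and 1.05 in D). The summed level there was 36.7 to 49.2 CPM in the 6 alone libraries and 63.2 to 87.3 CPM in the 6 NK libraries. All 5 tested peaks around Tspan2, which encodes a tetraspanin (chromosome 3, 102722909 to 102787774), gained with a median of 0.82, from 38.3 to 50.8 CPM alone to 63 to 82.2 CPM with NK cells. At Ssbp2, 5 of 8 tested peaks gained (median 0.63). These stretches were found from the gains themselves.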
